A study of Mus musculus with 32 samples.

Results

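The 9 genes described here are the DNA methyltransferases Dnmt1, Dnmt3a and Dnmt3b, the methyl-CpG-binding domain genes Mbd1, Mbd2 and Mbd3, and the growth arrest and DNA damage genes Gadd45a, Gadd45b and Gadd45g, measured in mouse frontal cortex (FCtx). They were chosen by symbol, as every probe that the annotation deposited with the array values assigns to them, which gave 17 of 25697 probes and 9 of 18138 gene symbols. Of these, 8 probes of 6 genes were detected on enough arrays to be tested. In all 8 the mean after quantile normalization was lower in ethanol-treated mice than in controls over the whole set of arrays. The median log2 difference over all tested probes was -0.0037. Among the 8, 2 passed a false discovery rate (FDR) of 1%, for Gadd45a and Gadd45b, where 8.18% of all tested probes passed and 4.53% passed as lower. Neither passed on the only chip that held both groups, where 5 of the 8 were lower. When arrays were scaled by their medians instead, Dnmt1 and Mbd3 were higher over all arrays, at 0.020 and 0.037, and 0 of the 8 passed.

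The 32 arrays came from 32 female F1 mice, 20 ethanol-treated and 12 control. The labels give the cross of every mouse as C57BL/6J x FVB/NJ F1, the Methods name both directions of that cross, and the study places the drinking period in early adulthood without giving an age in numbers. Ethanol-treated mice had a free choice of water or 20% ethanol in limited sessions in the dark over 20 days and were killed about a day after the last session. The controls are called untreated in the design text and matched in the Methods. The dissected piece held several cortical areas, so a level is a mean over all cells of that tissue, in which fewer cells of a type and less RNA per cell cannot be told apart. Each mouse has 1 array on an Illumina MouseRef-8 v2.0 BeadChip, which carries 8 arrays. On chips 1 and 2 all 16 mice were ethanol-treated, on chip 4 all 8 were controls, and chip 3 carried 4 of each. On chip 3 the ethanol-treated mice took the odd positions (A, C, E and G) and the controls the even positions (B, D, F and H), so treatment and position cannot be told apart there. Over all arrays, chip and treatment largely coincide.

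DNA methyltransferases add a methyl group to cytosine, mostly where a guanine follows it (CpG). Dnmt1 copies the existing pattern onto the new strand after replication, whereas Dnmt3a and Dnmt3b set methylation at new sites. Proteins with a methyl-CpG-binding domain recruit repressive complexes to methylated DNA, although Mbd3 of mammals binds it weakly and acts mainly as a subunit of the nucleosome remodelling and deacetylase (NuRD) complex. The Gadd45 proteins are small, inducible stress and DNA damage sensors without known enzymatic activity. They have been linked to the removal of DNA methylation through repair enzymes, and Gadd45b is induced in neurons by activity.

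Values are given as normalized log2 signal, after variance stabilization and quantile normalization over all arrays, and a difference is always the mean of ethanol-treated mice minus that of controls on this log2 scale. Levels of different probes are not compared, since probes differ in how brightly they bind. Adjusted p-values are from limma with Benjamini-Hochberg adjustment over the 10187 probes tested. Between 10644 and 11544 probes per array were detected in ethanol-treated mice and between 9480 and 11413 in controls. The median signal of an array before normalization was 166 to 203 in ethanol-treated mice and 146 to 187 in controls, and the array of control mouse C66 on chip 4 was the lowest in both measures. The tested probes of the 9 genes were read by 22 to 58 beads per array, with a median of 40.

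**Figure D1:**
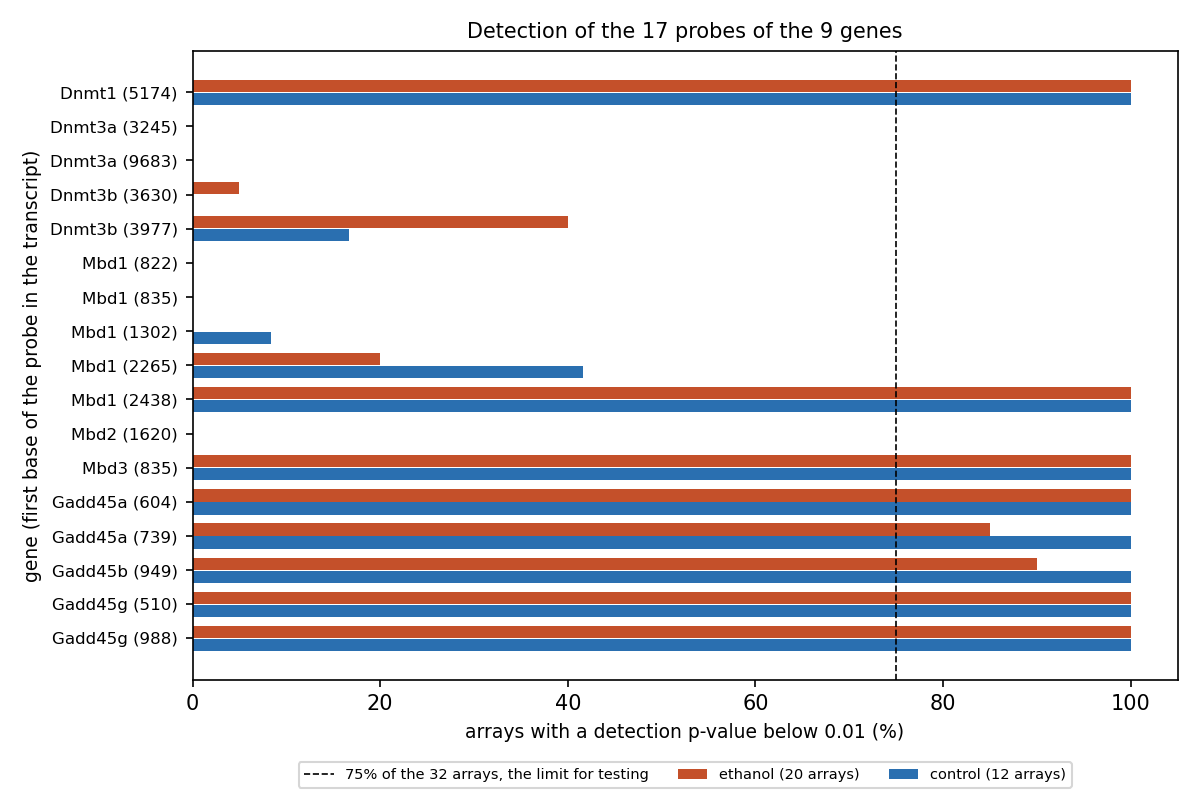
Share of arrays (%, x axis) on which each of the 17 probes was detected, at a detection p-value below 0.01, for 20 ethanol-treated mice (orange bars) and 12 controls (blue bars), with the first base of each probe in its transcript in parentheses on the y axis. The dashed line marks 24 of 32 arrays, the limit for testing, which 8 probes passed and 9 did not.

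Detection split the family. Dnmt1, Mbd3 and all 3 Gadd45 genes had every probe tested, and Mbd1 had 1 of 5. The remaining 9 probes fell short of detection on 24 of 32 arrays. Both Dnmt3a probes, the Mbd2 probe and the Mbd1 probes starting at bases 822 and 835 of the transcript were detected on 0 of 32 arrays, and the Mbd1 probe at base 1302 on 1 array, from a control. The Dnmt3b probe at base 3630 was detected on 1 array, from an ethanol-treated mouse, and the Dnmt3b probe at base 3977 on 10, from 8 ethanol-treated mice and 2 controls. The Mbd1 probe at base 2265 was detected on 9 arrays, from 4 ethanol-treated mice and 5 controls. A probe that is not detected sets no level for its gene, so nothing follows for Dnmt3a, Dnmt3b or Mbd2 about the presence of the transcript. When every probe of the array was fitted, the adjusted p of these 9 probes ran from 0.145 for the Dnmt3b probe at base 3977, which had a difference of 0.091, to 0.899 for the Mbd1 probe at base 822.

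Among the writers, only Dnmt1 (chromosome 9) could be compared, and its levels overlapped almost wholly between the groups. Its probe at base 5174 was detected on all 32 arrays. Ethanol-treated mice ranged from 8.52 to 8.99 with a median of 8.79, and controls from 8.63 to 9.01 with a median of 8.81. Of the 20 ethanol-treated mice, 18 lay within the range of the controls. The means were 8.78 ± 0.13 (SD, n = 20) and 8.83 ± 0.10 (SD, n = 12), a difference of -0.041 with a 95% interval from -0.13 to 0.048 (adjusted p = 0.555 by limma). On chip 3 the 4 ethanol-treated mice read 8.77, 8.88, 8.89 and 8.99 and the 4 controls 8.75, 8.81, 8.94 and 9.01. The controls there spanned the ethanol-treated mice on both sides, with a difference of 0.0058 and an interval from -0.15 to 0.16 (adjusted p = 0.974 by limma).

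Among the readers, Mbd1 (chromosome 18) was measured by its probe at base 2438, the last of its 5 probes along the transcript and the only one detected on all 32 arrays. Ethanol-treated mice ranged from 8.42 to 8.89 with a median of 8.57, and controls from 8.49 to 8.84 with a median of 8.70. The groups overlapped, though 10 of the 12 controls lay above the ethanol median and 4 of the 20 ethanol-treated mice above the control median. The difference was -0.073, with an interval from -0.16 to 0.016 (adjusted p = 0.253 by limma). On chip 3 it was -0.016 with an interval from -0.17 to 0.14 (adjusted p = 0.924 by limma), from 8.53, 8.53, 8.57 and 8.78 in ethanol-treated mice and 8.53, 8.59, 8.62 and 8.74 in controls.

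Mbd3 (chromosome 10) was the only gene of the 9 whose groups did not overlap on chip 3. Its probe at base 835 read 8.85, 8.94, 9.01 and 9.07 in the 4 ethanol-treated mice of that chip and 9.11, 9.14, 9.14 and 9.35 in the 4 controls. All ethanol-treated mice were therefore below all controls there, with a difference of -0.22, an interval from -0.37 to -0.058 and a fold of 1.16 (adjusted p = 0.0753 by limma). This missed the FDR of 1%, which 3.27% of the tested probes passed on chip 3 and 0 of the 8 described here did. It was within an FDR of 10% with at least a 1.1-fold change, a threshold that 16.3% of probes passed on this chip, but not with a normexp background (adjusted p = 0.114 by limma). At an unadjusted p below 0.05, 2727 of the 10187 probes differed on chip 3. The share of all tested probes whose groups did not overlap there was not counted. With chip as a block over all 32 arrays the Mbd3 difference was the same, since it rests on chip 3, and the adjusted p rose to 0.235.

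Away from chip 3, Mbd3 did not show this separation. Over all arrays ethanol-treated mice ranged from 8.72 to 9.30 with a median of 8.99, and controls from 8.80 to 9.35 with a median of 9.05. The difference was -0.038, with an interval from -0.15 to 0.076 (adjusted p = 0.683 by limma). Between the ethanol-treated mice of chips 1 and 2 and the controls of chip 4 it was 0.044, with an interval from -0.091 to 0.18 (adjusted p = 0.671 by limma). The chip 3 difference was lower than that by 0.26 (a difference of -0.26), which was not past the threshold (adjusted p = 0.162 by limma). The controls of chip 3 averaged 9.19 ± 0.11 (SD, n = 4) and those of chip 4 averaged 8.96 ± 0.16 (SD, n = 8), while the ethanol-treated mice averaged 8.97, 9.04 and 8.97 on chips 1, 2 and 3.

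**Figure D2:**
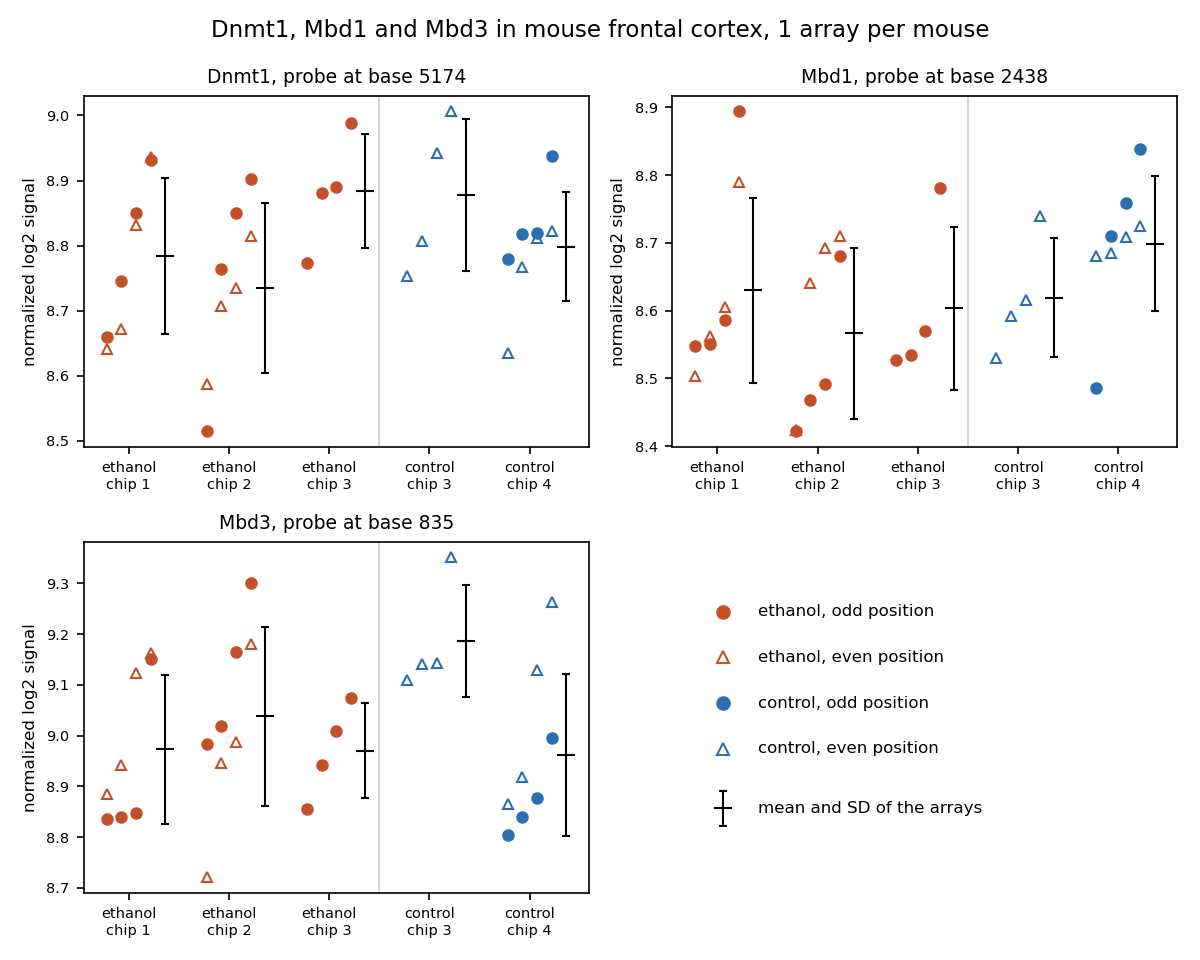
Normalized log2 signal (y axis) of the tested probes of Dnmt1, Mbd1 and Mbd3 for each mouse, by group and chip (x axis), with odd positions as filled circles and even positions as open triangles, drawn in order of value within a chip. The bar beside each set is the mean and SD of its arrays, and for Mbd3 the 4 ethanol-treated mice of chip 3, at 8.85 to 9.07, sit below the 4 controls of that chip, at 9.11 to 9.35.

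The Gadd45 genes carried the calls over all arrays, and the sequences their probes match are shown to tell apart the probes of 1 gene. Each probe is 50 bases long, and its first 30 bases are given as deposited, 5′ to 3′, with CpG in capitals, after the gene and the base of the transcript at which the probe starts.
Gadd45a, base 604: cCGggaaagtCGctacatggatcagtgggt
Gadd45a, base 739: ccccaCGctgatgcaaggattacagaaact
Gadd45b, base 949: aggagggcacctcaggcaagaggagactga
Gadd45g, base 510: tttgttctgCGaggagagcCGcagcttcaa
Gadd45g, base 988: aCGgatccCGggcaatgctttcattttcta

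Gadd45b (chromosome 10) had the lowest adjusted p of the 9 genes. Ethanol-treated mice ranged from 7.43 to 7.87 with a median of 7.68, and controls from 7.62 to 8.19 with a median of 7.89. Above the control median lay 0 of the 20 ethanol-treated mice, above the ethanol median lay 11 of the 12 controls, and 7 controls lay above every ethanol-treated mouse. The means, ethanol-treated first, were 7.70 ± 0.11 (SD, n = 20) and 7.91 ± 0.16 (SD, n = 12), a difference of -0.21 (standard error 0.048, interval from -0.31 to -0.12, 1.16-fold lower, adjusted p = 0.00229 by limma). The probe was detected on all 12 control arrays and on 18 of the 20 ethanol arrays. With a normexp background the difference was -0.38 (adjusted p = 0.00245 by limma), so its size depends on the background step.

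On chip 3 Gadd45b did not separate the groups. The 4 ethanol-treated mice read 7.66, 7.74, 7.74 and 7.87 and the 4 controls 7.62, 7.74, 7.89 and 7.90. All ethanol-treated mice lay within the range of the controls, and the difference was -0.038 (adjusted p = 0.798 by limma). Its interval, from -0.20 to 0.12, did not reach the -0.21 seen over all arrays, an estimate that includes these mice and has an interval of its own. With chip as a block the same difference had an interval from -0.22 to 0.14, which did (adjusted p = 0.857 by limma), so the call ends with the block without that value being outside its range. Between chips 1 and 2 and chip 4 the difference was -0.29 (adjusted p = 0.000396 by limma). The chip 3 difference exceeded that one by 0.25, which did not pass (adjusted p = 0.118 by limma). The controls averaged 7.79 ± 0.13 (SD, n = 4) on chip 3 and 7.97 ± 0.15 (SD, n = 8) on chip 4. Ethanol-treated mice averaged 7.68, 7.68 and 7.75 on chips 1, 2 and 3. The difference of -0.18 between the controls of chips 3 and 4 did not pass (adjusted p = 0.103 by limma). It also mixes chip with position, since the chip 3 controls sat at even positions only.

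Gadd45a (chromosome 6) was read by 2 probes, both lower in ethanol-treated mice over all arrays, of which the one at base 739 passed the FDR of 1%. At base 739, ethanol-treated mice ranged from 7.37 to 7.96 with a median of 7.72, and controls from 7.65 to 8.32 with a median of 7.90. The lower end of the range was held by ethanol-treated mice, 8 of which lay below every control, and the upper end by controls, 6 of which lay above every ethanol-treated mouse. This probe was detected on all 12 control arrays and on 17 of the 20 ethanol arrays. The ethanol arrays without detection held the lowest values, 7.37, 7.40 and 7.44 in mice A7, A34 and A21. These mice are among the 8 below every control, and their values set no level at the low end. The difference was -0.24 (standard error 0.065, interval from -0.38 to -0.11, 1.18-fold lower, adjusted p = 0.00805 by limma). This call was close to the threshold, and the adjusted p was 0.0111 with odd or even position as a covariate. With a normexp background the difference was -0.44 and missed the FDR of 1% (adjusted p = 0.0107 by limma), so its size depends on the background step. At base 604, ethanol-treated mice ranged from 7.90 to 8.51 with a median of 8.29, and controls from 8.13 to 8.83 with a median of 8.48. The difference there was -0.23 (interval from -0.38 to -0.086), which missed the FDR of 1% (adjusted p = 0.0215 by limma) and was within an FDR of 10% with a 1.1-fold change, as 17.7% of all probes were. It left that range with median scaling (adjusted p = 0.204 by limma) and with chip as a random block (adjusted p = 0.339 by limma).

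On chip 3 neither Gadd45a probe was lower in ethanol-treated mice. At base 739 the ethanol-treated mice read 7.69, 7.76, 7.79 and 7.96 and the controls 7.65, 7.71, 7.82 and 7.998. These values interleaved, with a difference of 0.0054 and an interval from -0.17 to 0.18 (adjusted p = 0.977 by limma). At base 604 they read 8.36, 8.47, 8.48 and 8.50 and the controls 8.13, 8.20, 8.29 and 8.53. Here 3 of the 4 controls lay below all ethanol-treated mice and the remaining control above them, and the difference was 0.17, with an interval from -0.0069 to 0.34 (adjusted p = 0.205 by limma). Without control C56, the highest of the 4, that difference was 0.25 and within an FDR of 10% (adjusted p = 0.0523 by limma). With chip as a block the adjusted p-values were 0.987 and 0.453.

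At base 604 the direction on chip 3 was opposite to that on the other chips. The difference was -0.39 between chips 1 and 2 and chip 4 (adjusted p = 0.000696 by limma), and the chip 3 difference exceeded it by 0.55 (standard error 0.14, interval from 0.27 to 0.83, adjusted p = 0.00944 by limma). Of all tested probes, 3.19% passed in this test of the difference, and of the 8 probes described here this 1 did. Ethanol-treated mice averaged 8.14, 8.30 and 8.45 on chips 1, 2 and 3, and controls 8.29 on chip 3 and 8.60 on chip 4. The ethanol-treated mice of chip 3 minus those of chips 1 and 2 gave 0.23 at this probe (adjusted p = 0.389 by limma). By limma, 0 of the 8 probes were within an FDR of 10% with a 1.1-fold change between these mice, as 0.0687% of all probes were, while 980 of all probes were at an unadjusted p below 0.05. At base 739 the difference between chips 1 and 2 and chip 4 was -0.34 (adjusted p = 0.00185 by limma), and the chip 3 difference exceeded it by 0.35, which did not pass (adjusted p = 0.103 by limma).

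Of the Gadd45g probes (chromosome 13), the one at base 510 showed no difference beyond its spread, whereas the one at base 988 was lower in ethanol-treated mice only by the broader threshold. At base 988, ethanol-treated mice ranged from 9.17 to 9.81 with a median of 9.48, and controls from 9.31 to 10.01 with a median of 9.66. The groups overlapped, with 17 of the 20 ethanol-treated mice inside the range of the controls. The difference was -0.19 (standard error 0.060, interval from -0.32 to -0.074, 1.14-fold lower, adjusted p = 0.0194 by limma). With median scaling it was -0.13 (adjusted p = 0.387 by limma) and with chip as a random block -0.16 (adjusted p = 0.207 by limma), both outside an FDR of 10%. At base 510, ethanol-treated mice ranged from 7.57 to 8.43 with a median of 7.86 and controls from 7.71 to 8.10 with a median of 7.92. The highest and the lowest of these values were both from ethanol-treated mice, and the difference was -0.064 with an interval from -0.18 to 0.050 (adjusted p = 0.459 by limma).

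The Gadd45g probe at base 988 also differed between odd and even positions on a chip. On chips 1, 2 and 4 the odd positions held the lower mouse numbers of each chip. Position and mouse order therefore cannot be told apart there. Over chips 1, 2 and 4, where treatment does not vary within a chip, arrays at odd positions were 0.21 higher than arrays at even positions (standard error 0.052, adjusted p = 0.00958 by limma), a threshold that 3.22% of all probes passed in that comparison and 1 of the 8 probes described here did. The mean at odd and even positions was 9.53 and 9.45 on chip 1, 9.63 and 9.30 on chip 2, and 9.87 and 9.64 on chip 4. On all 3 chips the odd positions were higher. On chip 3, where all 4 ethanol-treated mice sat at odd positions, they read 9.39, 9.46, 9.52 and 9.59 and the controls 9.31, 9.42, 9.61 and 9.70. The groups overlapped and the difference was -0.018 (interval from -0.19 to 0.16, adjusted p = 0.921 by limma). With odd or even position as a covariate the difference over all arrays was -0.25 and passed the FDR of 1% (adjusted p = 0.000547 by limma). With both chip and position in the fit it was -0.23 (adjusted p = 0.474 by limma).

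**Figure D3:**
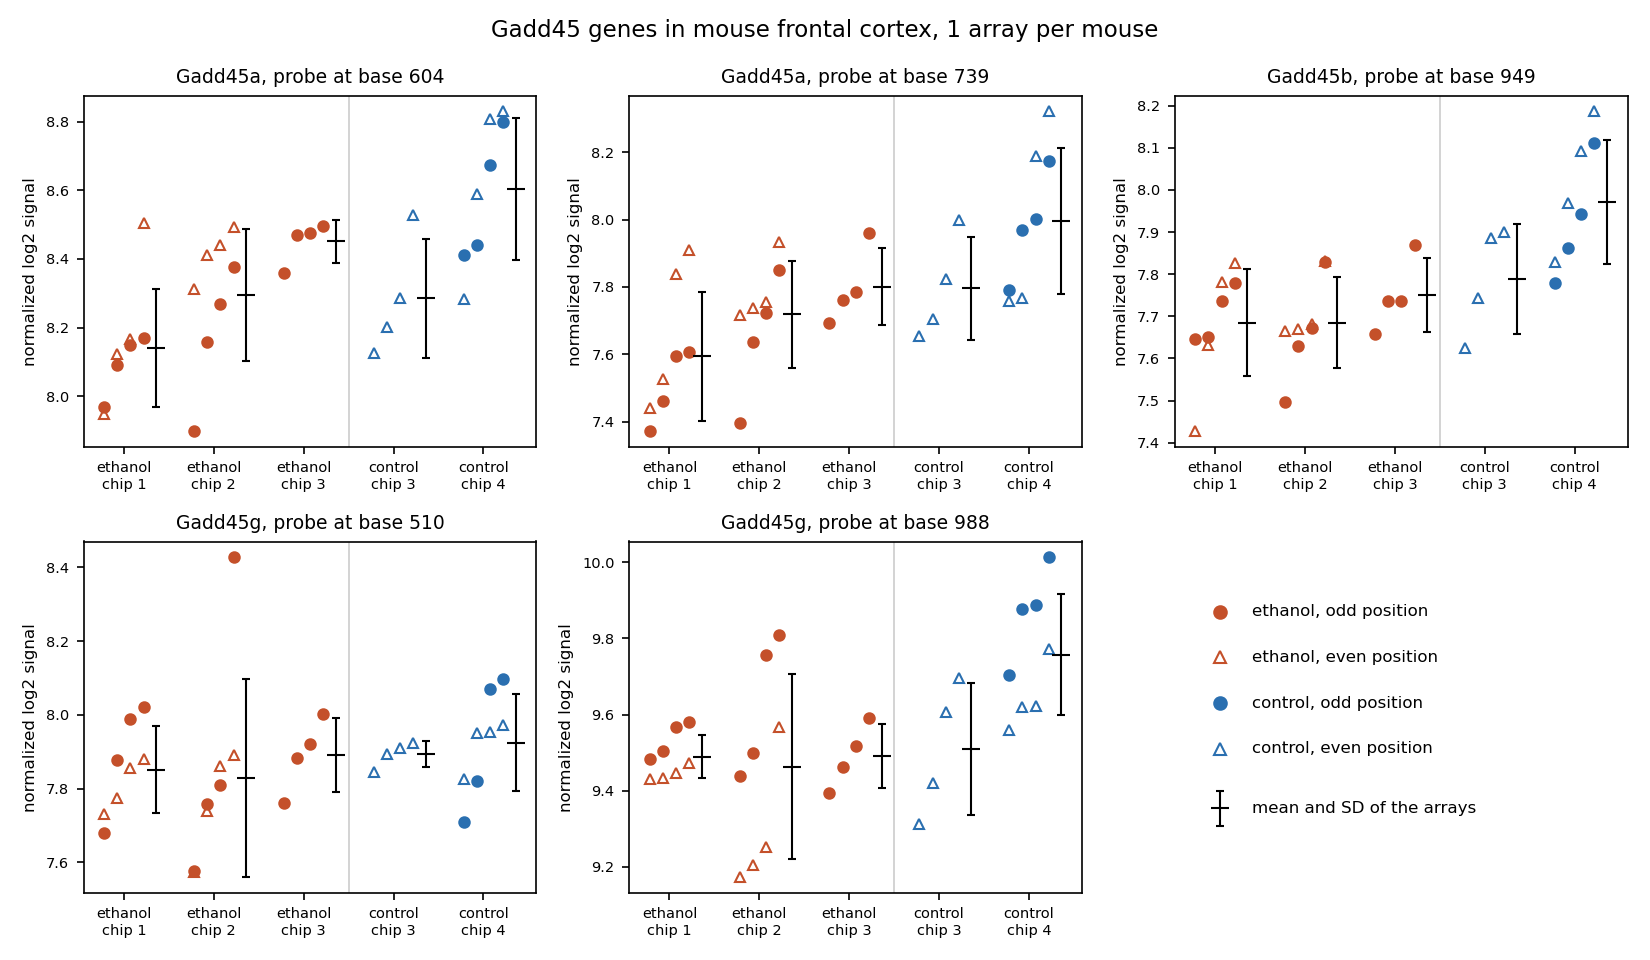
Normalized log2 signal (y axis) of the 5 probes of Gadd45a, Gadd45b and Gadd45g for each mouse, by group and chip (x axis), with odd positions as filled circles and even positions as open triangles, drawn in order of value within a chip. The bar beside each set is the mean and SD of its arrays, and for Gadd45b the controls of chip 4, at 7.78 to 8.19, lie highest while the controls of chip 3, at 7.62 to 7.90, overlap the ethanol-treated mice of the same chip.

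Set side by side, the 3 comparisons gave different counts for the 8 tested probes. Over all arrays 2 passed the FDR of 1% and 4 passed an FDR of 10% with a 1.1-fold change, all lower in ethanol-treated mice, as 8.77% of all probes were by the latter. Between chips 1 and 2 and chip 4, 4 passed the FDR of 1%, namely both Gadd45a probes, Gadd45b and the Gadd45g probe at base 988, where 11.7% of all probes passed and 5.76% did so as lower. That Gadd45g probe had a difference of -0.28 there (adjusted p = 0.00341 by limma). On chip 3 and with chip as a block 0 passed, where 3.27% and 0.167% of all probes did, and with the block 1992 probes were at an unadjusted p below 0.05. The median difference of the 8 probes was -0.13 over all arrays, -0.19 between chips 1 and 2 and chip 4, and -0.0089 on chip 3, beside -0.0037 over all 10187 probes in the first of these. All arrays and each of the other sets share mice, and chip 3 shares none with chips 1, 2 and 4.

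**Figure D4:**
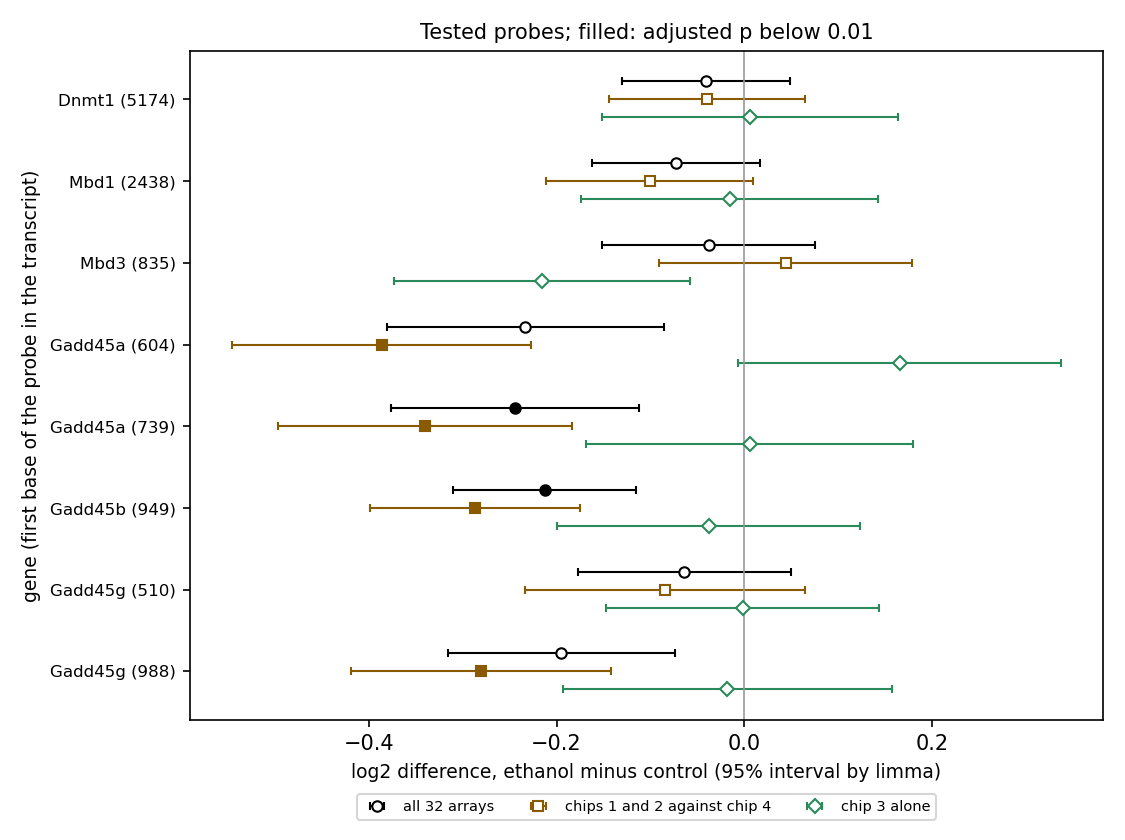
Log2 difference, ethanol minus control (x axis), with its 95% interval by limma for the 8 tested probes (y axis, with the first base of the probe in its transcript), over all 32 arrays (circles), between chips 1 and 2 and chip 4 (squares) and on chip 3 alone (diamonds). Filled symbols have an adjusted p below 0.01, which are 2 circles, 4 squares and 0 diamonds, and the chip 3 intervals of both Gadd45a probes, Gadd45b and both Gadd45g probes include 0.

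Signals before normalization did not differ in the same way, and for 5 of the 8 tested probes their mean was higher in ethanol-treated mice. For Gadd45b the mean of the deposited signals was 239 ± 16 (SD, n = 20) with ethanol and 239 ± 22 (SD, n = 12) without. That of Gadd45a was 351 ± 47 and 357 ± 65 at base 604, and 238 ± 32 and 247 ± 42 at base 739. The means with ethanol and without were 781 and 773 for Gadd45g at base 988, 267 and 243 for Gadd45g at base 510, 566 and 504 for Mbd3, 492 and 442 for Dnmt1 and 435 and 396 for Mbd1. The median signal over all probes ran from 146 to 168 on chip 4, all controls, and from 172 to 203 on chips 1 and 2, all ethanol-treated. On chip 3 it ran from 177 to 187 in controls and from 166 to 188 in ethanol-treated mice, so the groups overlapped there. The part of the median signal in the normalized differences was not tested beyond the change of scaling that follows. When each array was scaled by its median in place of quantile normalization, the difference was -0.16 for Gadd45b (adjusted p = 0.0404 by limma) and -0.21 for the Gadd45a probe at base 739 (adjusted p = 0.0779 by limma). Both kept their direction and missed the FDR of 1%. With that scaling 110 probes of the array passed as higher and 15 as lower, compared with 372 higher and 461 lower by quantile normalization.

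The genes also differed in how much mice of 1 group varied. The SD within groups was 0.22 and 0.19 for the Gadd45a probes, larger than that of 93.9% and 89.7% of all tested probes, and 0.17 and 0.16 for the Gadd45g probes at bases 988 and 510. Dnmt1 and Mbd1 varied less, with 0.12 each, below the median of 0.13 over all probes, and Gadd45b was at that median. The probes of 1 gene moved together only weakly from mouse to mouse. After centring within group and chip, the correlation over 32 arrays was 0.29 between the Gadd45a probes and 0.17 between the Gadd45g probes, which is a description of probes read on the same arrays. The difference between ethanol-treated mice and controls was not resolved as unequal for the probes of either gene. It was 0.011 higher at base 604 than at base 739 for Gadd45a (adjusted p = 0.891, permutation test) and 0.13 higher at base 510 than at base 988 for Gadd45g (adjusted p = 0.203, permutation test, both two-sided with 100000 resamples over 2 pairs).

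The promoters of the Gadd45 genes are shown because 4 of their 5 probes were lower over all arrays by an FDR of 10% with a 1.1-fold change, and because CpG is the site these pathways act on. Each line gives the 250 bases before the RefSeq start of the gene (GRCm38.p6), 5′ to 3′ on the strand of the gene, with CpG in capitals.
Gadd45a, chr6:67037408-67037657, minus strand: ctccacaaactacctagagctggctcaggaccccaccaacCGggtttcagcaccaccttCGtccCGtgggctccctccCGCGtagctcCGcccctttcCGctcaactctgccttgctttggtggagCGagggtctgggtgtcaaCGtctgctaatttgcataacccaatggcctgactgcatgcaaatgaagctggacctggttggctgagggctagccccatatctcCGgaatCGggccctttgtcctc
Gadd45b, chr10:80929841-80930090, plus strand: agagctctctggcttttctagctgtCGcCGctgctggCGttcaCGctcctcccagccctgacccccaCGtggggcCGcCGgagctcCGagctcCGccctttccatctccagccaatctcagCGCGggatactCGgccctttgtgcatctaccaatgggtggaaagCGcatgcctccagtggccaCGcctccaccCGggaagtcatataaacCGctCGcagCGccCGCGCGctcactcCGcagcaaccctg
Gadd45g, chr13:51846425-51846674, plus strand: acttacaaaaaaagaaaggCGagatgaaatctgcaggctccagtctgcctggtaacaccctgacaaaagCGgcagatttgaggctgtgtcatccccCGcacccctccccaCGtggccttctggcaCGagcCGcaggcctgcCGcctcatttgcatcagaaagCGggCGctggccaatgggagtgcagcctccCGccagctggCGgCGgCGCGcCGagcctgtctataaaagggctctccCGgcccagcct

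In a window of 300 bases, these and the first 50 bases of the transcript, the promoters held 14, 24 and 21 CpG for Gadd45a, Gadd45b and Gadd45g, compared with a median of 7 over 32851 mouse promoters of that length. That is more than in 63.7%, 80.0% and 75.2% of promoters. The motif CCAAT, searched on both strands like those that follow, occurred 1, 2 and 1 times, and 37.4% of all promoters hold it. TATAAA occurred in Gadd45b at base -46 and in Gadd45g at base -27 relative to the start and not in the Gadd45a window, and 13.6% of promoters hold it. GGGCGG occurred 1 time each in Gadd45a and Gadd45b and not in Gadd45g (35.7% of promoters). Neither TGACG (20.8% of promoters) nor TGANTCA (7.81%) was found in these windows. None of these motifs contains another, no methylation was measured, and a match of letters is not a bound site.

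The other genes of the pathway were read from lists, with each gene by its brightest tested probe, beside 7.86% of all 7926 tested genes past the FDR of 1% and a median difference of -0.0075 over them. Of the list for oxidation and repair of methylcytosine, which also holds scaffold and nucleotide excision repair genes, 6 of 9 genes on the array were tested and 2 were lower at the FDR of 1%. Xrcc1, the scaffold of single-strand break repair, had a difference of -0.19 (adjusted p = 0.00135 by limma), and the strand break sensor Parp1 one of -0.16 (adjusted p = 0.00386 by limma). On chip 3 they stood at -0.20 and -0.16 (adjusted p = 0.0840 and 0.207 by limma). The remaining 4 genes did not pass, among them the thymine DNA glycosylase Tdg at 0.026 and the endonuclease gene Ercc5 at 0.20 (adjusted p = 0.0112 by limma). Other readers of methyl-CpG or CpG had 5 of the 9 genes on the array tested and 0 calls by limma, with Cxxc1 at 0.12 (adjusted p = 0.0331 by limma) and a median of 0.037. Cofactors of the methyltransferases (6 of 12 tested) also had 0 calls, with a median of 0.028, and the NuRD complex, of which Mbd3 is a subunit (6 of 7 other subunit genes tested), had 0 with a median of -0.0066.

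Enzymes that supply the methyl donor had 6 of 12 genes tested and 1 call. Ahcyl1, a relative of the enzyme that clears S-adenosylhomocysteine, which itself acts in calcium signalling, rose by 0.33 (adjusted p = 0.000307 by limma) and had a difference of 0.077 on chip 3. The methionine adenosyltransferase genes Mat2a and Mat2b had differences of -0.0032 and 0.0055. Genes that act with Gadd45 in p53 and stress responses had 9 of 12 tested and 1 called, the stress transcription factor Ddit3, which had a difference of -0.19 (adjusted p = 0.0061 by limma) and of -0.026 on chip 3. Trp53 was at -0.14 (adjusted p = 0.102 by limma) and the p53 target Cdkn1a at 0.0034 (adjusted p = 0.980 by limma), so most of this list did not pass.

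Genes induced by neuronal activity, the class to which Gadd45b belongs, had 12 of 15 tested and 4 called, all lower in ethanol-treated mice, and the median difference of the list was -0.11. Arc, a synaptic immediate early gene, had a difference of -0.51 and the clock and activity gene Per1 one of -0.27 (limma's adjusted p was 0.00196 and 0.0034). For Junb and Fosb, which encode subunits of the transcription factor AP-1, the differences were -0.23 and -0.19 (limma's adjusted p was 0.0072 and 0.00217). On the mixed chip these 4 were at -0.25, -0.43, -0.31 and -0.065 in that order, of which Per1 passed there (adjusted p = 0.0020 by limma). Bdnf, which encodes a neuronal growth factor, passed on that chip in the other direction, at 0.44 (limma's adjusted p was 0.00717), and was at -0.0065 over all arrays. The synaptic scaffold gene Homer1 was higher over all arrays, at 0.19, and missed the FDR of 1% (limma's adjusted p was 0.0145). Fos and Egr1 did not pass over all arrays, at -0.065 and -0.054. The mean level of the list on an array ran from 9.46 to 9.92 in ethanol-treated mice and from 9.54 to 9.99 in controls, so the groups overlapped. With chip as a block, 0 genes of these 7 lists passed the FDR of 1%, and the list medians then ran from -0.10 for oxidation and repair to 0.15 for the other readers.

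Markers of cell types and neighbouring tissue were read in the same way. Of 9 neuronal markers on the array 5 were tested, with a mean level of 12.60 to 12.81 in ethanol-treated mice and 12.52 to 12.75 in controls, while Snap25, Gad2, Tubb3 and Nefl had probes that were not detected on enough arrays. Of 9 markers of cortical layers, 6 were tested, at 9.15 to 9.43 and 9.19 to 9.41. Oligodendrocyte markers (9 of 10 tested) ranged from 10.11 to 11.27 and from 10.07 to 11.01 and had a median difference of -0.38 on chip 3. Olfactory bulb markers (4 of 7 on the array tested, without Tbx21, Eomes and Pbx3) ranged from 7.75 to 9.58 and from 7.71 to 9.31, with a median difference of 0.56 on chip 3, although the Methods describe a dissection without the bulbs. Over all arrays the medians of these lists were -0.060 and 0.19, with 0 genes past the FDR of 1% in either. Striatal markers had a median difference of -0.24 on chip 3. The chip 3 medians of the oligodendrocyte, bulb and striatal markers carry no test of their own. The part of these markers in the differences of the 9 genes on that chip was not tested. Choroid plexus markers had 0 of 4 genes tested. The other lists had median differences over all arrays of 0.014 (astrocytes, 7 of 9 tested), -0.072 (microglia, 10 of 10), 0.032 (endothelium, 7 of 7), -0.028 (striatum, 3 of 5) and -0.071 (blood, 3 of 4). For the neuronal and layer markers the median differences over all arrays were 0.060 and -0.016. At the FDR of 1%, 1 astrocyte marker was higher, and 1 neuronal and 2 layer markers were lower.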

How the data were processed

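RNA of the FCtx of 32 mice was profiled on Illumina arrays, 1 array per mouse, with 20 ethanol-treated mice and 12 controls grouped by their labels. The authors deposited the mean bead intensity of each probe on a linear scale without normalization. Beside it the authors deposited the p-value for detection of each probe, and other values, namely the bead standard error and number. Their background step is not given in the sources used here. Of the value columns, 0 lacked a sample.

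Following the Methods, which name lumi and limma, signals were variance-stabilized with a reimplementation from the bead errors and quantile-normalized in R 4.3.3 (with data.table, version 1.17.8). To be tested by limma 3.58.1, a probe needed detection at p below 0.01 on 24 or more of the 32 arrays. Fits were made without covariates, two-sided, with Benjamini-Hochberg adjustment. The filter was set here for this test. A call is an FDR below 1%. A probe may read several transcripts of its gene, which cannot be told apart. Precision is limited by the number of arrays. Correlations between arrays were 0.972 to 0.994 over 496 pairs, none identical. Each sample is 1 mouse by the labels. Sequence searches and figures used Python 3.11.15, numpy 2.4.6, pandas 2.3.3 and matplotlib 3.10.9. The procedures were also tested on simulated data.

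The genes and lists were chosen with earlier results of these data known. All probes of the 9 genes are named, with list genes called at an FDR of 1% and a few others of each list named after their values were seen. Likeness was taken for the 2 called genes as the 3 genes with the highest correlation after centring within group and chip. Tried in their place were plain log2 signals, a normexp background (offset 16), median scaling, other probe filters, chip or position in the fit, array weights, other thresholds and leaving out arrays. The fits at even or at odd positions only were added after seeing the data. The coordinates of the probes are of a build that is not named and are not printed. Array levels of genes outside these lists were not used here, apart from the background counts and likeness.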

Additional observations from a re-analysis of the deposited data

Results flagged for a closer look

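In 5 of the 40 sets of arrays of 1 tested probe, group and chip, a single mouse stood apart by Dixon's criterion, the gap to the nearest mouse divided by the range of the set. Chance alone flags about 1 in 20 sets, or 2 of 40. For the Mbd1 probe at base 2438, ethanol-treated mouse A49 on chip 3 was at 8.78 while the other 3 lay between 8.53 and 8.57 (ratio 0.833). For the same Mbd1 probe, control mouse C62 on chip 4 was at 8.49, below the others at 8.68 to 8.84 (ratio 0.553). For the Gadd45a probe at base 604, ethanol-treated mouse A13 on chip 1 was at 8.51, above the others at 7.95 to 8.17 (ratio 0.601). For the Gadd45g probe at base 510, ethanol-treated mouse A28 on chip 2 was at 8.43, above the others at 7.57 to 7.89 (ratio 0.629). For Mbd3, control mouse C54 on chip 3 was at 9.35, above the other 3 at 9.11 to 9.14 (ratio 0.858). Without mouse C54 the Mbd3 difference on chip 3 was -0.16 (adjusted p = 0.212 by limma), no longer within an FDR of 10%, and the other 3 controls were still above all 4 ethanol-treated mice.

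For the Gadd45a probe at base 604, the ethanol effect on chip 3 exceeded that between chips 1 and 2 and chip 4 by 0.55 on the log2 scale, a difference that passed its own test (adjusted p = 0.00944 by limma). With median scaling it was 0.41 (adjusted p = 0.154 by limma). The same test gave 0.35 for the Gadd45a probe at base 739 and 0.25 for Gadd45b, and neither passed.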

How the results depend on the processing

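Chip as a block and median scaling each ended both calls made over all arrays. Treatment can be compared within 1 chip only, with 4 mice a group. Over all arrays 2 of the 8 probes passed the FDR of 1%. This count was 1, Gadd45b, with normexp background or all probes of the array, and 1 at odd positions only, where it was the Gadd45g probe at base 988 and both other calls were lost. It was 0 with median scaling, with only probes detected on all arrays (which drops both called probes), with chip as a fixed or random block, with chip and position together, or at even positions only. It was 4 with array weights and at an FDR of 10% with or without the 1.1-fold limit. It was 2, the same probes, with log2 of the signal and without mouse C66. With position A to H or odd or even position as a covariate it was 2, Gadd45b and the Gadd45g probe at base 988, while Gadd45a at base 739 was lost. Without C66, 581 probes of the array passed, with the fixed chip block 17, with the random block 82, with median scaling 125 and at even positions 6, against 833. With median scaling 0 probes passed between chips 1 and 2 and chip 4 (4 otherwise), between positions (1) and in the difference of effects (1). On chip 3 the count stayed at 0 without each mouse.

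Differences that changed sign were as follows. Dnmt1 was 0.020 with median scaling and 0.0058 with the block. Mbd1 was 0.0086 with block and position, and Mbd3 0.037 with median scaling and 0.12 at odd positions. Gadd45a was 0.17 with the block and 0.29 with block and position at base 604, and 0.0054 and 0.12 at base 739. Gadd45b was 0.000354 with block and position. With median scaling, chip 3 gave -0.039 for Dnmt1 and -0.016 for Gadd45a at base 739, chips 1 and 2 against chip 4 gave 0.072 for Dnmt1 and 0.012 for Mbd1, and the difference of effects was -0.11 for Dnmt1, -0.075 for Mbd1 and -0.024 for Gadd45g at base 510. The difference between the Gadd45a probes was -0.046 without chip 3. Without each chip 3 mouse in turn, the chip 3 difference ran from -0.035 to 0.049 for Dnmt1, -0.075 to 0.024 for Mbd1, -0.048 to 0.073 for Gadd45a at base 739, 0.11 to 0.25 at base 604, -0.093 to -0.0012 for Gadd45b, -0.039 to 0.042 for Gadd45g at base 510 and -0.083 to 0.044 at base 988. For Mbd3 it ran from -0.25 to -0.16, with adjusted p from 0.0756 to 0.212, and was no longer within an FDR of 10% without ethanol-treated mice A46 (0.140) or A47 (0.199) or controls C54 (0.212) or C55 (0.120), nor with a normexp background. List medians that moved were, with the block, 0.15 for other readers, -0.10 for oxidation and repair, 0.051 for methyl donor supply, 0.080 for p53 and stress and 0.018 for activity-induced genes, and with median scaling 0.035 for oxidation and repair, 0.095 for cofactors and 0.054 for NuRD. The causes were not tested. No paired analysis was possible because the mouse numbers differ between the groups and pair no arrays.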

Other observations

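The genes whose pattern was most like that of Gadd45b over the 32 arrays, after centring within group and chip, were Bola3 (r = 0.64), 6720456B07Rik (r = 0.63) and Slc37a3 (r = 0.62). For Gadd45a, by its brighter probe at base 604, they were Tfpt (r = 0.66), Chordc1 (r = 0.64) and Gfm1 (r = 0.63). That Gadd45a probe missed the FDR of 1%. Bola3 acts in mitochondrial iron-sulphur cluster assembly. Over all arrays the differences were -0.31 for Bola3, -0.11 for 6720456B07Rik and 0.021 for Slc37a3 (adjusted p = 6.21e-05, 0.0440 and 0.775 by limma). On chip 3 they were -0.17, -0.19 and 0.055. The 3 genes most like Gadd45a had differences from -0.027 to 0.031 over all arrays. The correlations named here are the highest of many read on the same arrays and are given as a description.

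Among the 9 genes, the centred values of Gadd45a at base 604 and Gadd45g at base 988 had a correlation of -0.41 over the 32 arrays, and those of Mbd3 and Gadd45b 0.41. Between controls of different chips, the Gadd45a probe at base 604 was -0.32 on chip 3 relative to chip 4 (adjusted p = 0.0311 by limma). The Gadd45g probe at base 988 was -0.25 (adjusted p = 0.0729 by limma) and Mbd3 was 0.22 (adjusted p = 0.0819 by limma). The chip 3 controls all sat at even positions and the chip 4 controls at both, so these differences mix chip with position. For that Gadd45g probe, chip 4 controls averaged 9.64 at even and 9.87 at odd positions, and chip 3 controls 9.51.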
